A study of Mus musculus with 10 samples.

Results

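Bile ducts make up a small part of the liver. Their lining cells, the cholangiocytes, modify bile, and after injury they can spread outwards as a ductular reaction that contains cells with progenitor features. Cholangiocytes are told apart from hepatocytes by keratin 7 and keratin 19, by the adhesion protein EPCAM and by the transcription factor SOX9, whereas both cell types carry keratin 8 and keratin 18. The 8 genes described here are Krt7, Krt19, Krt23, Epcam, Sox9, Cftr, Prom1 and Cd24a, taken by symbol from the 24537 gene symbols of a table of raw counts. All 8 were found, and 7 of them had enough reads to be tested. Cftr did not, with 28 reads in all 10 livers together.

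RNA was sequenced from whole livers of male mice. All animals had received an adeno-associated virus of serotype 8 that expresses Staphylococcus aureus Cas9 from the TBG promoter, which is active in hepatocytes, together with a guide RNA. In 3 young mice (virus at 7 months, liver taken at 9 months) and 3 old mice (virus at 23 months, liver taken at 25 months) the guide targeted the Rosa26 locus, and these are the controls. In 4 further old mice of the same ages the guide targeted Cd44, which encodes a cell surface receptor. Livers 1 and 2 of this group received guide 4 and livers 3 and 4 received guide 2. The promoter directs editing to hepatocytes, so bile duct cells are not the intended target in any group.

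Total counts per liver lay between 15821198 and 21710228, and 3 reads, taken as the smallest detectable amount, equal 0.138 to 0.19 CPM (the count scaled to a common library size) across the livers. Cd44 itself had 10.1 to 16.6 CPM in young livers, 14.2 to 30.0 CPM in old controls and 13.1 to 29.01 CPM in the livers labelled as knockout. The log2 difference between the livers labelled knockout and old controls was -0.25 (SE 0.30, edgeR adjusted p 0.896), so the Cd44 reads of whole liver did not separate these groups, and directions below rest on the labels. By guide, the log2 difference from old controls was -0.60 for guide 2 (mean 15.3 CPM, edgeR adjusted p 0.778) and 0.04 for guide 4 (mean 23.9 CPM, edgeR adjusted p 0.998). The hepatocyte marker list (11 genes, among them Alb, Ttr and Apoa1) summed to between 98003 and 123592 CPM in every liver, a sum made up mostly of Alb. Gene by gene, 1 of these 11 was above 0 with age, 2 were called lower by edgeR, and their median log2 difference was -0.45. Old control liver 2 stood apart in its immune markers, and these values are given beside Cd24a.

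The label of the gene set was checked against further cholangiocyte genes. Tspan8, a surface tetraspanin, had 24 to 64 reads per liver. Cldn7, an epithelial tight junction protein, had 8 to 34 reads. The secretin receptor gene Sctr had 0 to 11 reads. Reads from bile duct cells were thus present in these libraries in small numbers. In whole tissue, fewer cells of a type and less RNA per cell cannot be told apart.

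Levels of different genes can be compared only per length, here as CPM per kilobase of the longest GENCODE M21 transcript, averaged over the 10 livers. Cd24a stood at 4.24 on this scale, Sox9 at 2.71, Epcam at 1.62 and Krt19 at 1.24. Krt23 (0.549), Prom1 (0.327), Krt7 (0.259) and Cftr (0.0237) followed. Krt18 and Krt8, the keratins shared with hepatocytes, stood at 245 and 158, and albumin at 34523. Of neighbouring members in this order, the gap exceeded the standard deviations over livers of both genes only between Sox9 and Epcam (SD 0.632 and 0.701) and between Krt7 and Cftr (SD 0.142 and 0.0171). Among the members, the widest spread was that of Cd24a (SD 4.09). By mean CPM the 7 tested members ranked among the less abundant tested genes, from Krt23 (above 7.16% of the tested genes) to Sox9 (above 43.2%).

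**Figure D1:**
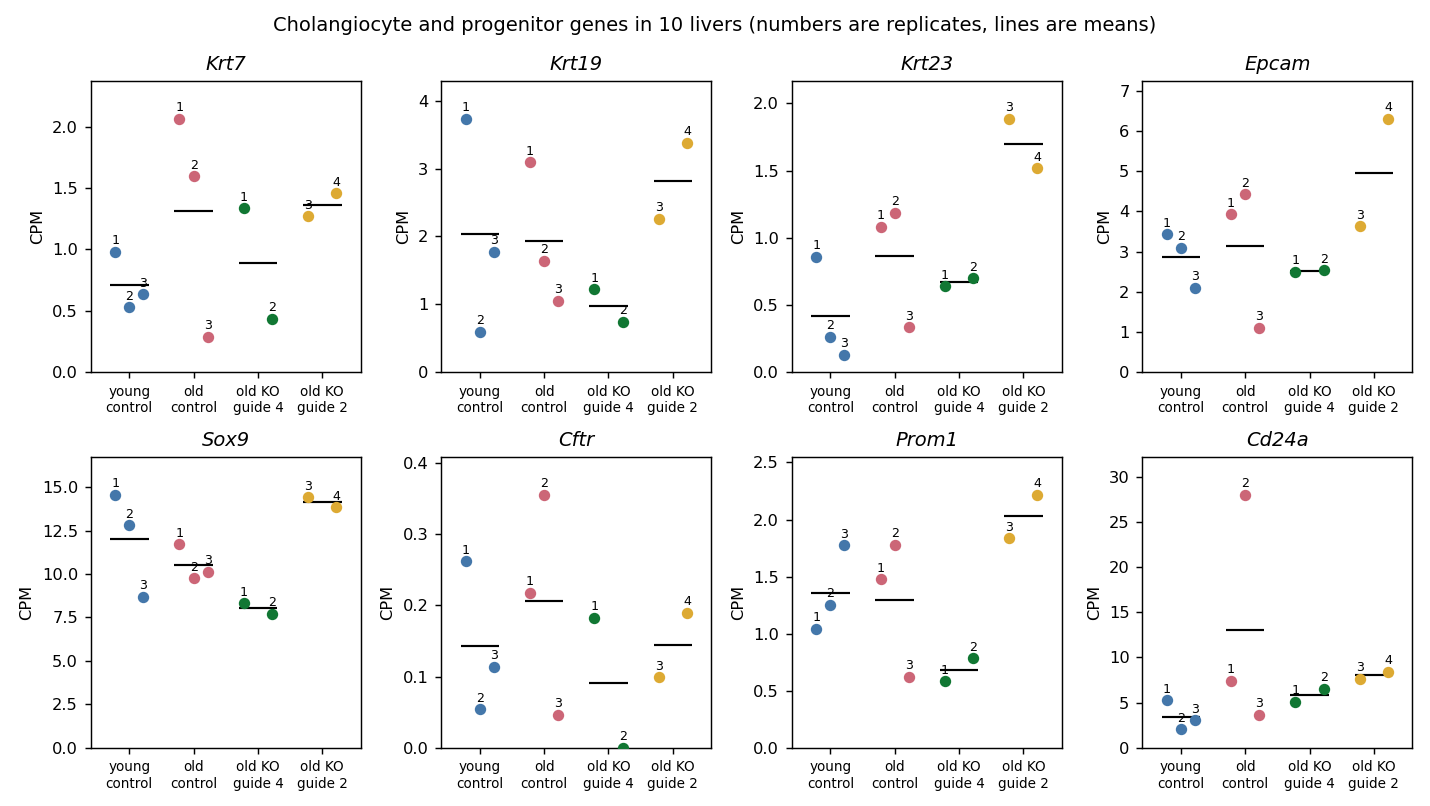
Each panel shows 1 gene, with CPM per liver on a linear axis that starts at 0, the livers grouped as young control, old control, old knockout with guide 4 and old knockout with guide 2, replicate numbers beside the points and a line at each mean. Cd24a in old control liver 2 reaches 27.99 CPM, and the guide 4 livers lie below the guide 2 livers for 6 of the 7 tested genes.

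Krt23 and Epcam ranked the livers most alike among the members with a promoter sequence at hand, and are shown for that reason. Promoters were taken from RefSeq on GRCm38.p6, where 5 of the 8 members matched by symbol; Krt19, Sox9 and Cd24a did not match. Each window runs over the 150 bases before the annotated start, read along the gene. The Krt23 window lies at chr11:99493121-99493270 on the minus strand, where 17 of its bases fall in an exon of the GENCODE annotation, and the Epcam window at chr17:87635829-87635978 on the plus strand, outside exons. Capitals mark matches to the motifs searched on both strands.
Krt23: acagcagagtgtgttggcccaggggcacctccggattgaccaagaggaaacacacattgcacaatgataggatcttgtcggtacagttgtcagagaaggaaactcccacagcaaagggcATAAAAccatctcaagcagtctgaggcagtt
Epcam: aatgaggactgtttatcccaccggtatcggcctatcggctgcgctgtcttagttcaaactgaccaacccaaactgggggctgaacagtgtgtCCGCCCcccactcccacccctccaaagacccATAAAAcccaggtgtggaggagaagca
Both windows hold ATAAAA, which resembles the core promoter element named TATA box, 31 bases before the start in Krt23 and 27 bases before it in Epcam. This motif was added after the sequences had been read, and it occurs in 10.1% of 32851 promoter windows of the same length. The Epcam window also holds 1 GC box on the opposite strand (GGGCGG, in 28.6% of windows). Neither window held the TEAD core GGAATG (7.59% of windows), the SOX core ACAAAG (9.88%), the RBPJ core TGGGAA (13.1%) or TATAAA (7.57%), which says only that these letters are absent from these windows.

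The first comparison asked how the genes differed between old and young control livers. Of the 7 tested members 1 passed, Cd24a, which was higher in old livers, while 22.8% of all 13909 tested genes passed in either direction and 14.1% in the upward one. The median log2 difference of the 7 members was 0.13, beside 0.04 over all genes tested, with 4 members above 0 and 3 below. In each member the young and old control values overlapped, while 37.7% of all tested genes had groups without overlap.

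Among the keratins, Krt7 (chromosome 15, 101411043 to 101430313) had 0.979, 0.528 and 0.634 CPM in young livers 1 to 3 and 2.06, 1.60 and 0.286 CPM in old control livers 1 to 3. Old livers 1 and 2 lay above all young livers, and old liver 3 lay below them all. The log2 difference was 0.87 (SE 0.64, 95% interval -0.54 to 2.28, edgeR adjusted p 0.338). Leaving out 1 liver at a time, the Krt7 value ranged from 0.39 without old control liver 1 (edgeR adjusted p 0.709) to 1.34 without old control liver 3 (edgeR adjusted p 0.0501). Krt7 overlaps an antisense gene, Gm671, and whether strand was used in counting is not given in the sources used here.

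Krt19 (chromosome 11, 100140810 to 100148665), the smallest of the keratins and a standard bile duct marker, had 3.73, 0.594 and 1.77 CPM in young livers and 3.10, 1.64 and 1.05 CPM in old controls. The young group spanned the whole range of the old one. Its log2 difference was -0.08 (SE 0.66, 95% interval -1.54 to 1.37, edgeR adjusted p 0.939), an interval that still holds a 2-fold change in either direction. Krt23 (chromosome 11, 99477974 to 99493137), a type I keratin known for its induction in diseased liver, had 0.857, 0.264 and 0.127 CPM in young and 1.08, 1.19 and 0.334 CPM in old control livers. Old livers 1 and 2 were above the young livers and old liver 3 was within their range. The log2 difference of 1.04 (SE 0.71, 95% interval -0.52 to 2.60, edgeR adjusted p 0.304) was not past the threshold, at 2 to 26 reads in each of these livers. Leaving out 1 liver at a time, it ranged from 0.61 without young liver 3 to 2.12 without young liver 1 (edgeR adjusted p 0.596 and 0.104).

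Epcam (chromosome 17, 87635979 to 87651129) had 3.43, 3.10 and 2.09 CPM in young livers and 3.93, 4.42 and 1.10 CPM in old controls, with a log2 difference of 0.13 (SE 0.49, edgeR adjusted p 0.866). Here too the old control group held both the higher values and the lowest one. Prom1 (chromosome 5, 43993620 to 44102032), which encodes the membrane protein prominin 1 or CD133, had 1.04, 1.25 and 1.77 CPM in young and 1.47, 1.78 and 0.620 CPM in old control livers. Old control livers 1 and 2 were close to the young values, liver 3 lay below every young liver, and the log2 difference was -0.07 (SE 0.53, edgeR adjusted p 0.938). Gm42716 and the antisense Gm16401 are annotated over Prom1 and could share its reads.

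Sox9 (chromosome 11, 112782224 to 112787760), the transcription factor of bile duct cells that is also found in some periportal hepatocytes and in stellate cells, was the steadiest member. Young livers had 14.6, 12.8 and 8.68 CPM and old controls 11.7, 9.75 and 10.1 CPM, all of the old values within the young range. Its log2 difference was -0.19 (SE 0.27, 95% interval -0.78 to 0.40, edgeR adjusted p 0.631). Over all 10 livers the highest value was 1.89 times the lowest, against 14.9 times for Krt23 and 13.7 times for Cd24a.

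Cftr (chromosome 6, 18170687 to 18322768), the chloride channel through which secretin drives bicarbonate secretion into bile, had 5, 1 and 2 reads in young livers, 4, 7 and 1 in old controls, 3 and 0 with guide 4 and 2 and 3 with guide 2. In 7 of the 10 livers it was at or under the floor of 3 reads. A change was not detectable at this depth: without the filter on low counts, the age difference in Cftr was a log2 value of 0.16 with a standard error of 0.90 (edgeR adjusted p 0.943).

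Cd24a (chromosome 10, 43578284 to 43584265) encodes a small glycosylated surface protein of bile duct and progenitor cells that B cells, neutrophils and red cell precursors also carry. It had 5.26, 2.04 and 3.04 CPM in young livers and 7.42, 27.99 and 3.67 CPM in old controls. Old control livers 1 and 2 lay above every young liver, and liver 3 lay within the young range. The log2 difference was 1.91 (SE 0.62, 95% interval 0.54 to 3.28, edgeR adjusted p 0.0479), a fold change of 3.77. Without old control liver 2 it fell to 0.68 (edgeR adjusted p 0.288). The call was also lost without young liver 1, 2 or 3 (edgeR adjusted p 0.0634, 0.165 and 0.127), with limma voom (adjusted p 0.166) and when only these groups entered the edgeR fit (adjusted p 0.111).

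The liver with the highest Cd24a also had the highest sums of several other marker lists. Old control liver 2 had 351 CPM over 10 neutrophil and granulocyte precursor genes, against 6.65 to 35.3 CPM in the other livers, and 1398 CPM over 10 macrophage genes, against 144 to 631. Its 8 T and NK cell genes summed to 60.4 CPM, against 3.07 to 30.6, and its 10 cell cycle genes to 93.8 CPM, against 10.3 to 48.9. Stellate cell and fibroblast genes (11) summed to 723 CPM there, against 185 to 559 CPM elsewhere. Of 11 gallbladder, duct mucus and pancreas genes, 6 to 9 were at 0 in each liver, and most reads of that list came from Cela1 alone. B cell markers did not follow this liver, with 20.4 CPM there and 24.9 CPM in old control liver 1, and erythroid markers were higher in knockout liver 2 (2575 CPM) than in it (1977 CPM). The part of these cells in the Cd24a value was not tested.

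**Figure D2:**
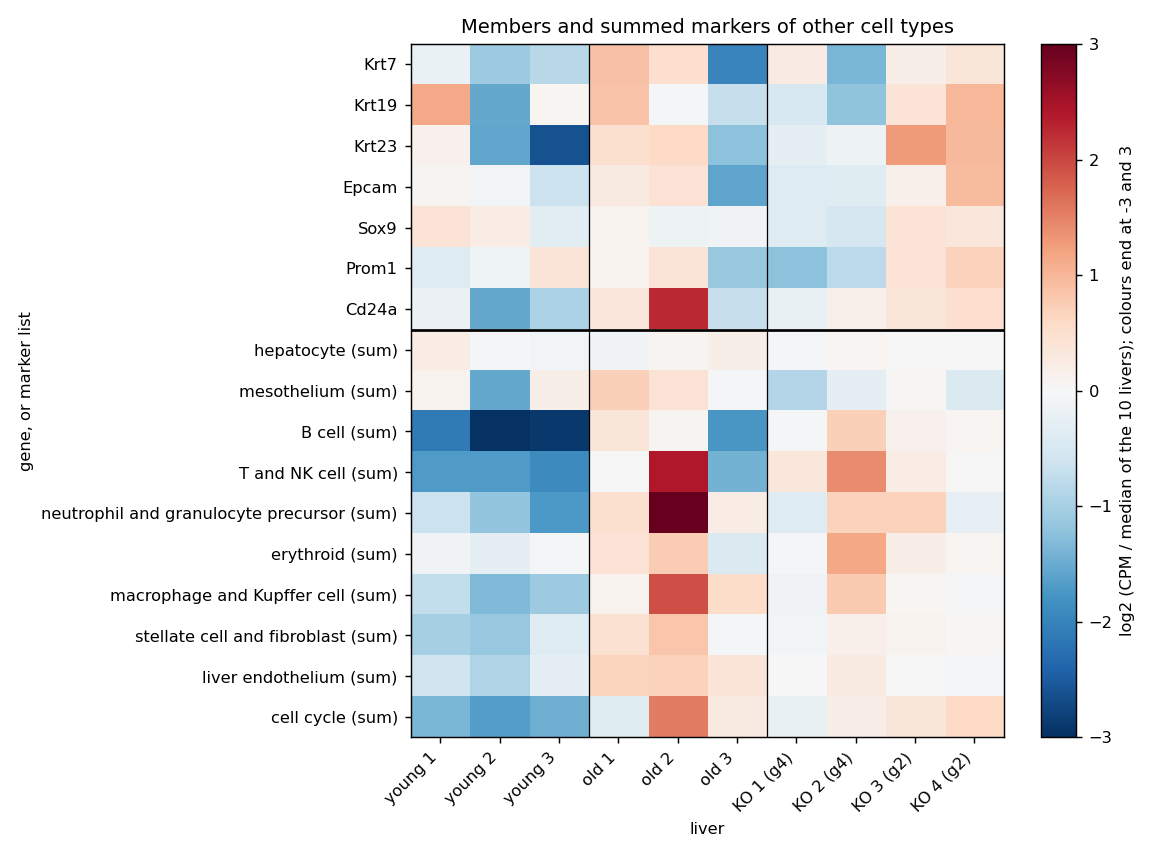
Colours give the log2 ratio of each value to its median over the 10 livers, for the 7 tested members above the line and for the summed markers of 10 cell types or states below it, with 1 column per liver (KO, knockout; g4 and g2, guide 4 and guide 2). Old control liver 2 is high in Cd24a (27.99 CPM) and in the neutrophil list (351 CPM), and old control liver 3 is low in Krt7 (0.286 CPM) and Epcam (1.10 CPM).

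Among the members, single livers set much of the spread. Old control liver 3 had the lowest value of its group for 7 of the 8 members, and young liver 1 the highest of its group for 7 of 8. The share of all genes with these patterns was not counted. Across genes in general, old control liver 3 differed from old control livers 1 and 2 by a chi-square of 170 and 80.2 per degree of freedom, beside 65.7 between those livers. For young liver 1 the values were 31.9 and 20.3, beside 27.5 between young livers 2 and 3. The library of old control liver 3 also carries a number far from those of the rest, and a batch of its own cannot be told apart from that liver. Over the 45 pairs of livers, 2 members put between 24 (Sox9 and Cd24a) and 40 (Krt23 and Cd24a) pairs in the same order, with a median of 31 over the 21 pairs of members. All genes share library and depth, so these counts describe the livers and carry no test. Of mesothelium, which also expresses Krt7 and Krt19, the 7 markers summed to 1.79 to 8.50 CPM, with Upk3b at 1 to 36 reads.

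The genes nearest to each member in their order of livers were named by a fixed rule, as a description. Ctgf, a secreted matricellular protein and a target of the Hippo pathway factor YAP, put 44 of 45 pairs of livers in the same order as Cd24a. It had 22.7 CPM in old control liver 2 and 2.97 to 10.3 CPM in the others. Mob3a and Cdkn2d followed with 43 pairs each. Krt23 was nearest to Nt5c3 (44 pairs), Scara3 and Rsf1 (43 each), and Epcam to Sppl3 (43), Il20rb (42) and Dnajc7 (41). Krt7 was nearest to Aptx (42 pairs), Kif1a and Tdrd3 (41 each), and Krt19 to Col4a5 and Atf3 (40 each) and Prr15l (39). Prom1 was nearest to Polr2g and Pik3ip1 (40 each) and Esco1 (39), and Sox9 to Tmbim1, Efhd1 and Cpne3 (39 each). The median over all other genes was 22 or 23 pairs.

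Wider lists of bile duct genes were read in the same comparison, where 14.1% of all genes tested were called higher and 22.8% were called in either direction. Krt8 and Krt18, the keratin pair of hepatocytes and bile duct cells alike, were the only tested genes of their list of 4, and both fell with age. Krt8 had 619, 421 and 297 CPM in young livers and 198, 254 and 313 CPM in old controls, and the log2 difference was -0.80 (SE 0.25, edgeR adjusted p 0.0406). Krt18 had 549, 524 and 318 CPM against 301, 279 and 337 CPM, and its log2 difference was -0.60 (SE 0.20, edgeR adjusted p 0.0477). Both groups overlapped through young liver 3. Of the hepatocyte markers, Hnf4a, a central transcription factor of hepatocytes, fell in the same comparison by 0.96 on the log2 scale, from 1069 to 1188 CPM in young livers to 437 to 842 CPM in old controls (edgeR adjusted p 0.0147). The part of hepatocytes in the Krt8, Krt18 and Cdh1 values was not tested. These calls were fragile: Krt8 lost its call in 7 of 12 alternatives and Krt18 in 8, in both cases without young liver 1 or 2 or old control liver 1 or 2, and with counts scaled to library totals the differences were -0.50 and -0.29.

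Ductular reaction and progenitor genes moved both ways, with 4 of 14 tested genes higher in old livers and 2 lower, and a median log2 difference of 0.64. Tnfrsf12a, which encodes Fn14, the receptor for the progenitor mitogen TWEAK, had 33.4, 72.8 and 29.1 CPM in young livers and 12.5, 8.62 and 7.20 CPM in old controls. All old livers lay below all young livers, and the log2 difference was -2.26 (SE 0.35, edgeR adjusted p 0.00762). It was past the threshold in all 12 alternatives. Igf2bp2, an RNA-binding protein, fell by 1.31 on the log2 scale (edgeR adjusted p 0.0101) and Anxa3, an annexin, rose by 1.39 (edgeR adjusted p 0.0154). The call of Igf2bp2 was lost without young liver 2 (edgeR adjusted p 0.0517), and that of Anxa3 without young liver 2 or old control liver 2 (edgeR adjusted p 0.0723 and 0.0556).

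Of the Notch genes, the pathway that forms bile ducts in development and that also acts in endothelium, 3 of 9 rose and none fell, with a median of 0.60. Hey1, a Notch target, had 0.367, 0.132 and 0.380 CPM in young livers and 1.23, 4.38 and 1.72 CPM in old controls. Its log2 difference was 3.02 (SE 0.60, edgeR adjusted p 0.0101). In young liver 2 Hey1 lay under the floor of 3 reads, which equals 0.163 CPM there by total counts, so the size of the difference is uncertain. The call was lost without that liver (edgeR adjusted p 0.0539). Dll4, a Notch ligand, and Nrarp, a feedback inhibitor of the pathway, rose by 1.39 and 1.02 (edgeR adjusted p 0.0287 and 0.0251). Markers of liver endothelium, where Hey1 and Dll4 are known to be expressed, were also higher in old controls, at 353 to 440 CPM against 144 to 222 CPM in young livers. These sums are scaled to total counts, unlike the log2 differences. In the tests, the median log2 difference of the 10 endothelium genes was 0.92. The part of endothelium in the Notch values was not tested. Among Hippo pathway targets 1 of 7 rose, Axl, a receptor kinase also found on macrophages, with 22.6, 18.0 and 22.7 CPM in young livers and 40.8, 152 and 51.9 CPM in old controls (log2 difference 1.95, SE 0.43, edgeR adjusted p 0.0132). Its call was lost without young liver 2 (edgeR adjusted p 0.0651), and the difference was smallest, at 1.13, when old control liver 2 was left out.

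Of the bile duct transcription factors 1 of 10 rose and 2 fell, with a median of 0.12. Yap1, the effector of the Hippo pathway, had 103, 113 and 102 CPM in young livers and 60.7, 57.3 and 80.8 CPM in old controls, with no overlap and a log2 difference of -0.68 (SE 0.15, edgeR adjusted p 0.0141). Without young liver 2 or old control liver 2 its adjusted p was 0.064 and 0.0588. Foxj1, a regulator of motile cilia, rose by 2.26 and Tead1, the DNA-binding partner of YAP, fell by 0.76 on the log2 scale (edgeR adjusted p 0.0258 and 0.0382). The calls of Dll4, Nrarp, Foxj1 and Tead1 were each lost without young liver 2, young liver 3 or old control liver 2, with edgeR adjusted p of 0.0788 to 0.137. Of the transport and secretin genes 5 of 9 rose and 1 fell, with a median of 0.78. The one that fell, Slc10a2, the sodium-dependent bile acid uptake carrier of cholangiocytes and ileum, had 104, 101 and 169 CPM in young livers and 29.2, 36.3 and 59.8 CPM in old controls, again with no overlap. Its log2 difference was -1.58 (SE 0.37, edgeR adjusted p 0.0156), and its call was lost without young liver 2 or 3 or old control liver 2 (edgeR adjusted p 0.0521, 0.0558 and 0.0615). The part of hepatocytes and other cells in the Slc10a2 and Yap1 values of whole liver was not tested. Slc5a1, a sodium-glucose carrier, and Adcy6, an adenylyl cyclase of the secretin response, rose by 1.22 and 1.195 (edgeR adjusted p 0.0300 and 0.0266). In the adhesion and junction list 1 of 13 genes fell and none rose by edgeR, Cdh1, which encodes E-cadherin and is shared with hepatocytes (log2 difference -1.31, edgeR adjusted p 0.0455). In the cilium list 1 of 8 rose, Bicc1, an RNA-binding protein tied to cystic kidneys (0.96, edgeR adjusted p 0.0378). The calls of Slc5a1, Adcy6, Cdh1 and Bicc1 were each lost without young liver 2, young liver 3, old control liver 1 or old control liver 2, with edgeR adjusted p of 0.0514 to 0.151.

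**Figure D3:**
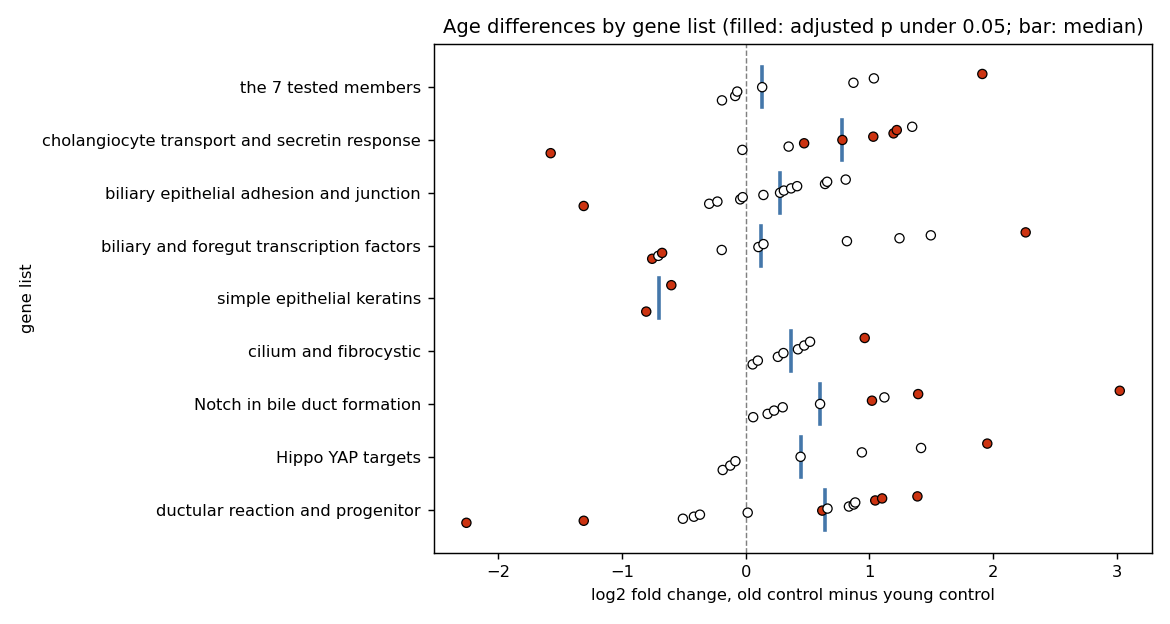
Each point is the log2 fold change of 1 tested gene between old and young control livers, by gene list, with genes at an adjusted p under 0.05 filled and the median as a bar; within a list the points are only spread vertically for sight. The 7 tested members have a median of 0.13 and 1 filled point, Cd24a, while the list of ductular reaction and progenitor genes has filled points on both sides of 0.

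The second comparison asked how the genes differed between old livers with Cd44 editing in hepatocytes and old controls. None of the 7 tested members passed by edgeR, DESeq2 or limma voom, and none had an unadjusted edgeR p under 0.05. Of all genes 0% passed by edgeR and 6.59% had an unadjusted p under 0.05. The 2 groups overlapped in all members, and 6.1% of all genes had groups without overlap. The median log2 difference of the members was 0.06, beside -0.02 over all genes tested. None of the 8 wider lists had a gene past the threshold by edgeR.

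Knockout livers 1 to 4 had 1.34, 0.436, 1.27 and 1.46 CPM of Krt7, 1.22, 0.742, 2.26 and 3.38 CPM of Krt19, and 0.639, 0.698, 1.88 and 1.52 CPM of Krt23. The log2 differences from old controls were -0.24 for Krt7 (95% interval -1.48 to 1.002), -0.03 for Krt19 (-1.38 to 1.32) and 0.45 for Krt23 (-0.85 to 1.75). Each interval includes a 1.5-fold change in either direction, so a difference of that size was not excluded. Sox9 had 8.31, 7.72, 14.4 and 13.8 CPM, and its interval was the narrowest, -0.48 to 0.62 around 0.07. Epcam had 2.499, 2.53, 3.63 and 6.30 CPM and Prom1 0.581, 0.785, 1.84 and 2.22 CPM, with log2 differences of 0.24 (SE 0.45) and 0.06 (SE 0.49).

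Cd24a had 5.06, 6.54, 7.63 and 8.40 CPM in knockout livers 1 to 4, all inside the range of the old controls. The log2 difference was -0.92 (SE 0.55, 95% interval -2.11 to 0.28, edgeR adjusted p 0.794), the largest of the members. It turned to 0.32 (edgeR adjusted p 0.989) without old control liver 2, the liver with 27.99 CPM. The sign of the Cd24a difference between knockout and control thus rested on that liver.

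**Figure D4:**
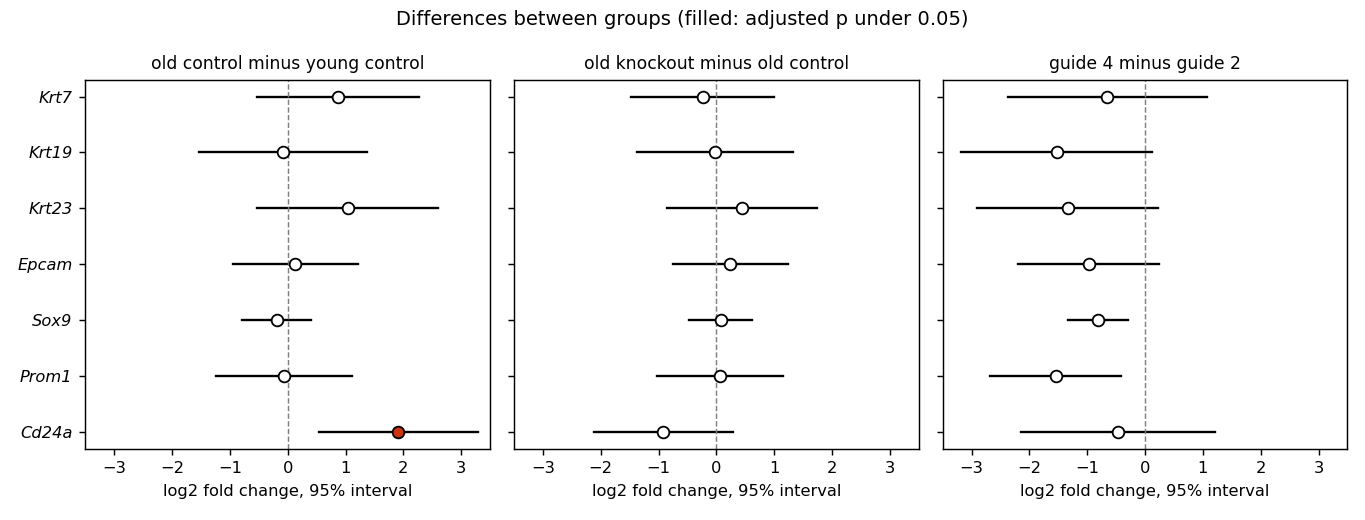
Points give the log2 fold change of each tested member and lines its 95% interval, for old against young controls, knockout against old controls and guide 4 against guide 2; filled points have an adjusted p under 0.05. Only Cd24a with age is filled (1.91), and all 7 points lie below 0 in the comparison of guides, from -0.46 for Cd24a to -1.55 for Prom1.

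Set against young controls, the old knockout livers shared both groups with the comparisons above, so their values are given only side by side with those. None of the 7 members passed by edgeR (11.6% of all genes did), DESeq2 or limma voom, and 1, Krt23, had an unadjusted edgeR p under 0.05, as did 33.3% of all genes. Krt23 differed by 1.48 (SE 0.67, edgeR adjusted p 0.146), beside 1.04 for old controls against young, and ranged from 1.06 to 2.57 leaving out 1 liver at a time. Cd24a differed by 0.997 (SE 0.59, edgeR adjusted p 0.258), beside 1.91 for old controls. When only these groups entered the fit, Cd24a passed, with a log2 difference of 0.9995 and an edgeR adjusted p of 0.0323. In the wider lists, Tnfrsf12a (-1.67, edgeR adjusted p 0.0159) and Slc10a2 (-1.78, edgeR adjusted p 0.0164) were again lower than in young livers, beside -2.26 and -1.58 for old controls. The call of Tnfrsf12a was lost without young liver 2 (edgeR adjusted p 0.0708), and that of Slc10a2 without young liver 2 or 3 (edgeR adjusted p 0.062 and 0.064). Of the members, Krt7 differed by 0.63, Epcam by 0.37, Sox9 by -0.12, Krt19 by -0.11 and Prom1 by -0.00 on the log2 scale.

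The knockout livers were then separated by guide, with 2 livers each. Cd44 itself had 18.9 and 29.01 CPM with guide 4, above the 17.6 and 13.1 CPM of guide 2 (log2 difference 0.64, SE 0.36, edgeR adjusted p 0.9996). All 7 tested members were lower with guide 4, and for 6 of them (all but Krt7) both guide 4 livers lay below both guide 2 livers. Over all genes tested, 38.6% had such groups without overlap in either direction and 20.4% in this one. None of the members passed by edgeR, DESeq2 or limma voom, and 2, Sox9 and Prom1, had an unadjusted edgeR p under 0.05. Of all genes 0.0216% passed by edgeR and 4.34% had an unadjusted p under 0.05. The median log2 difference of the members was -0.97, beside 0.00 over all genes tested.

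Prom1 stood at 0.581 and 0.785 CPM in the guide 4 livers, against 1.84 and 2.22 CPM in the guide 2 livers, for a log2 difference of -1.55 (SE 0.51, 95% interval -2.68 to -0.41, unadjusted p 0.0127, edgeR adjusted p 0.841). For Sox9 the livers had 8.31 and 7.72 CPM against 14.4 and 13.8 CPM, a difference of -0.82 (SE 0.24, 95% interval -1.34 to -0.29, unadjusted p 0.00583, edgeR adjusted p 0.636). Among the members these were the only ones whose 95% interval excluded 0. Krt19 differed by -1.53 (SE 0.74), Krt23 by -1.34 (SE 0.71) and Epcam by -0.97 (SE 0.55), each with an edgeR adjusted p of 0.9996. Krt7 differed by -0.65 (SE 0.77) and Cd24a by -0.46 (SE 0.76).

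Old controls were set beside each guide. For Sox9 they had 9.75 to 11.7 CPM, above both guide 4 livers and below both guide 2 livers. For Krt23 and Prom1, too, both guide 2 livers were above all old controls (9.56% of all genes had this pattern), and the guide 4 livers were within the control range for Krt23. The separate differences from old controls were 0.42 for guide 2 and -0.39 for guide 4 in Sox9, 0.64 and -0.90 in Prom1, and 0.55 and -0.99 in Krt19, with edgeR adjusted p of 0.741 or more. No member passed for either guide by edgeR, with 0.0216% of all genes passing for guide 2 and 0% for guide 4.

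Other epithelial genes were read for the guides as well. In the adhesion and junction list, 2 of 13 tested genes were higher with guide 4, with a median log2 difference of -0.62 and none past the threshold by edgeR. Hippo targets had 1 of 7 higher and a median of -0.43, and the ductular reaction list 10 of 14 higher and a median of 0.18. Krt8 and Krt18 had a median of -0.09. Hepatocyte markers summed to 102598 and 110486 CPM for guide 4, beside 106339 and 106096 CPM for guide 2, and mesothelial markers to 2.80 and 4.30 against 5.29 and 3.79 CPM, with overlap. Macrophage markers summed to 341 and 631 CPM for guide 4, beside 378 and 350 CPM for guide 2. Of the 11 marker lists, 3 had sums that did not overlap between guides, while 38.6% of all single genes tested did not overlap. The cell cycle sum was lower with guide 4 (27.4 and 37.0 CPM, beside 41.6 and 48.9), with 2 of 10 genes higher and a median log2 difference of -0.52. The T and NK cell sum (14.5 and 30.6 CPM, beside 13.5 and 11.6) and the liver endothelium sum (273 and 328 CPM, beside 269 and 258) were higher with guide 4. The part of these cells in the guide values was not tested.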

How the data were processed

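Per the labels' protocols, polyadenylated RNA was prepared with the Watchmaker mRNA kit and sequenced on an AVITI system. The deposited values are raw counts, 1 whole number for each gene symbol and liver, with no normalization. The submitters' processing notes name FastQC 0.11.8, Trim Galore 0.4.4, STAR 2.5.3a, HOMER and the build mm10; whether counting used strand, and with which annotation, is not given in the sources used here. Positions come from GENCODE M21 (GRCm38, the same build).

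Counts were tested with edgeR 4.0.16 (R 4.3.3), by the quasi-likelihood test over all 10 libraries with 1 coefficient per group (separate ones per guide for guide values), TMM factors and filterByExpr (minimum count 10, minimum total 15), which left 13909 genes. Genes were called at a Benjamini-Hochberg adjusted p under 0.05 over these. CPM used TMM factors, except for Cftr and summed lists, which used total counts. The 95% intervals are unadjusted. Errors are SE of fits or SD over livers, and floors of 3 reads cover counting error only. Labels do not pair livers or name separate cultures or donors, so p-values measure the spread between these samples; within groups, any 2 livers differed beyond counting noise (the smallest chi-square was 20.3 per degree of freedom). Alternatives used DESeq2 1.42.0, limma 3.58.1 voom, other scaling, no filter, fewer groups or fewer livers.

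The members and the lists (8 of bile duct genes with 86 entries, 3 unmatched; 11 of markers with 107 entries, 3 unmatched) were chosen with earlier results of these data known. By rule the text names all members, Cd44, up to 3 called genes per bile duct list with the largest change, and the 3 genes nearest to each member, by the number of pairs of livers put in the same order of log2 CPM (prior count 2). Tested on simulated counts of 13909 genes, the edgeR test recovered 49% of 2-fold changes for age, 50% for knockout and 26% for guides. The changed genes were drawn at random from all tested genes. The members lie low among these by mean CPM, from Krt23 (above 7.16%) to Sox9 (above 43.2%), so these rates are not those of the members. Some genes of these lists and 1 motif are not reported here.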

Additional observations from a re-analysis of the deposited data

Results flagged for a closer look

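Among 30 values tested for a single deviating liver in the knockout group of 4, 4 had one, meaning that its distance to the nearest liver made up most of the spread of the group. About 1.5 such cases arise by chance. None of the 4 was a member. Knockout liver 2 was each time the one apart. It was lowest for the summed simple epithelial keratins, which are nearly all Krt8 and Krt18 (gap 0.847 of the range; 529 CPM against 602 to 616). It was highest for erythroid genes (gap 0.856; 2575 CPM against 1117 to 1328), for macrophage genes (gap 0.870; 631 CPM against 341 to 378) and for T and NK cell genes (gap 0.844; 30.6 CPM against 11.6 to 14.5).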

How the results depend on the processing

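No paired analysis was possible because each library number in the labels is used once, so that no number is shared between groups. Over the alternatives, 298 of 349 values of single members kept direction and side of the threshold, 6 lost the call (all Cd24a with age), 1 gained it and 44 changed sign, none of these past the threshold before or after. Scaling to library totals moved the median of all genes with age from 0.04 to 0.34 and from 0.03 to 0.35 against young for the knockout, and there Krt19, Sox9 and Prom1 turned to 0.24, 0.12 and 0.26 (age) and 0.20, 0.20 and 0.31 (knockout against young), all below that shift. With limma voom Krt19 and Epcam turned to 0.10 and -0.071 with age and Prom1 to -0.016 with knockout. Guide 2 livers alone gave 0.052 for Krt7 and 0.55 for Krt19 against old controls, and guide 4 livers alone gave -0.37 for Krt23, -0.32 for Epcam, -0.39 for Sox9 and -0.90 for Prom1. Leaving out 1 liver at a time, age values ranged from -0.60 to 0.69 for Krt19, -0.20 to 0.53 for Epcam and -0.37 to 0.26 for Prom1. Knockout values ranged from -0.71 to 0.24 for Krt7, -0.45 to 0.49 for Krt19, -0.17 to 0.57 for Epcam, -0.080 to 0.21 for Sox9, -0.27 to 0.37 for Prom1 and -1.36 to 0.32 for Cd24a. Those of knockout against young ranged from -0.55 to 0.66 for Krt19, -0.31 to 0.040 for Sox9 and -0.33 to 0.24 for Prom1. The cause of these changes was not tested.

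The count of members called with age, 1, was 0 with limma voom, 0 when the fit held only the groups compared, and 0 to 1 leaving out 1 liver; that of knockout against young, 0, was 1 with only the groups compared. Over all genes, 3172 were called with age, 1192 with only the groups compared, and 396 (without young liver 2) to 5327 (without old control liver 3) leaving out 1 liver. For knockout the 0 genes became 7 with DESeq2, 3 for guide 2 livers alone and 0 to 3 leaving out 1 liver, with 916 at an unadjusted p under 0.05. Knockout against young gave 1614, and 3585 with library totals, 2718 with DESeq2, 969 with limma voom, 4223 when the fit held only the groups compared and 56 (without young liver 2) to 1652 leaving out 1 liver. Guides gave 3, and 10 without the filter, 69 with DESeq2, 31 with only the 4 knockout livers and 0 in each fit that left out 1 of them, where the lone liver of an arm is assumed to vary like the other groups. Depth limits Cftr (0 to 7 reads), Krt23 (2 to 40) and Krt7 (6 to 42) most.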

Other observations

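Some genes of the bile duct lists differed between guides at an unadjusted p under 0.05 without passing the adjustment, and are given as values chosen after they were seen. Abcc4, an efflux carrier of the basolateral membrane, stood at 2.03 and 3.75 CPM in the guide 4 livers, against 11.9 and 8.75 CPM in the guide 2 livers, a log2 difference of -1.82 (SE 0.35, edgeR adjusted p 0.250). Cdh1, which encodes E-cadherin, had 10.9 and 9.90 CPM against 20.9 and 35.7 CPM (-1.44, SE 0.32, edgeR adjusted p 0.350). The young livers had 46.8, 52.0 and 35.6 CPM of Cdh1. Tspan8 missed that unadjusted threshold, at 1.74 and 1.57 CPM against 2.78 and 3.21 CPM (-0.85, SE 0.47).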
